A study of Homo sapiens with 105 samples.

Results

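The transcripts described here belong to the system that turns plasminogen into plasmin at the cell surface and to the receptors that proteases cut open. They are the serpins SERPINE2 and SERPINB2, the plasminogen activators PLAU and PLAT, the urokinase receptor PLAUR, tissue factor F3, the protease-activated receptors F2R and F2RL1, and the secreted serine protease HTRA1. The 9 genes were taken by symbol from 5 tables of differential expression with 26330 gene symbols each, and all 9 had an adjusted p in every table. HGrC1, a human granulosa cell line, carried an empty transduced vector (EV), or vectors for wild-type FOXL2 (WT) or for FOXL2 C134W, the missense change of most adult granulosa cell tumors. Each was sampled without and with TGF (as the labels write it), giving 6 groups with 3 RNA samples in each. KGN, a granulosa tumor line that is heterozygous for C134W, was sampled without TGF (4 samples in the labels) and with it (5 samples). The sources used here do not give the dose or duration of TGF, the vector's promoter, or whether the lines are clones. The 78 chromatin samples of the series were not analysed here.

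Urokinase (PLAU) and tissue-type plasminogen activator (PLAT) cleave plasminogen to plasmin, a broad protease of fibrin and matrix. Urokinase is held at the cell surface by PLAUR, and the serpins SERPINB2 (PAI-2) and SERPINE2 (protease nexin-1) inhibit the activators, SERPINE2 also inhibiting thrombin. Tissue factor starts the clotting cascade that makes thrombin, and thrombin cleaves F2R (PAR1), whereas trypsin-like proteases and the tissue factor complex cleave F2RL1 (PAR2). In the ovary, plasminogen activators of granulosa cells are known for their part in the breakdown of the follicle wall at ovulation. HTRA1 cleaves matrix proteins and has been described as an inhibitor of TGF-beta family signaling.

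The tables hold no value per library, so levels per group were solved from the deposited means and fold changes, as normalized counts per 1000000 of a group's total (CPM), and carry no spread of their own. Whether single libraries of different groups overlap could not be seen. By the genes with a single read, every HGrC1 table held 6 libraries, and that of KGN held 11 (6 untreated and 5 treated), 2 more than the labels name. The estimated depth of a library lay between 3590000 reads (KGN) and 19650000 reads (C134W and WT with TGF). The transduced gene, FOXL2, stood at 0.971 and 0.823 CPM in EV cells without and with TGF, between 82.5 and 146.6 in the WT and C134W groups, and at 108.4 and 76 in KGN. The 14 granulosa markers summed to between 193.0 and 497.4 CPM, led by GATA4 or, in KGN with TGF, NR5A1. These sums include FOXL2 itself, which without TGF gave 0.971 of 319.3 CPM in EV, 146.6 of 439.3 in WT and 136.1 of 441.9 in C134W. The follicle-stimulating hormone receptor FSHR was at most 0.0452 CPM and at 0 in KGN, so this defining marker was all but absent. AMHR2, NR5A1 and NR5A2 were at most 0.163 CPM in HGrC1 cells. CYP19A1 was at most 0.2 CPM there except in C134W with TGF (6.71), and WT1 was at most 0.0158 in KGN. Endothelial markers summed to at most 6.16, immune markers to at most 20.1 and theca markers to at most 10.2 CPM. The epithelial list, carried by KRT18, summed to 739.6 CPM in C134W cells with TGF against 1258 in WT and 1875 in EV. The stromal list, carried by COL1A1, summed to 8135 there against 6227 in WT and 12041 in EV. Both lists differed between the groups compared below, and their part in the results was not tested.

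Promoters are shown for 4 of the 5 genes with the highest fold change against EV with TGF (HTRA1, SERPINB2, F2RL1 and PLAU), and for F3, which holds 2 AP-1 matches. The fifth of them, SERPINE2, has 2 windows without a match to the motifs below and is not printed. The table of RefSeq promoters used here (GRCh38.p14) holds 7 of the 9 genes, and the windows are the 250 bases upstream of a start site. Those shown are of SERPINB2 (chr18:63887455-63887704, plus strand), F3 (chr1:94541760-94542009, minus strand), PLAU (chr10:73910882-73911131, plus strand, the start of 2 that holds a match), F2RL1 (chr5:76818780-76819029, plus strand) and HTRA1 (chr10:122461303-122461552, plus strand). Capitals mark a match to the SMAD half-site GTCTG or the AP-1 site TGANTCA on either strand, or to the TATA box TATAAA on the gene's strand.
SERPINB2 promoter: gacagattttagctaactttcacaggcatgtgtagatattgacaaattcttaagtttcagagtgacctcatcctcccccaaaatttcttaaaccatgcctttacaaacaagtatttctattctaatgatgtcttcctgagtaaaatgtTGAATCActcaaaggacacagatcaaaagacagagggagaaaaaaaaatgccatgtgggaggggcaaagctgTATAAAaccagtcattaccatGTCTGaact
F3 promoter: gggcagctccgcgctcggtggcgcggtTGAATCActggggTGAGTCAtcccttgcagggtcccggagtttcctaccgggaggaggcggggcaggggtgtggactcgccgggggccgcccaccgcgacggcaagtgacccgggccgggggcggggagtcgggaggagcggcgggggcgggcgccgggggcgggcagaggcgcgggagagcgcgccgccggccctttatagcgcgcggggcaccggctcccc
PLAU promoter: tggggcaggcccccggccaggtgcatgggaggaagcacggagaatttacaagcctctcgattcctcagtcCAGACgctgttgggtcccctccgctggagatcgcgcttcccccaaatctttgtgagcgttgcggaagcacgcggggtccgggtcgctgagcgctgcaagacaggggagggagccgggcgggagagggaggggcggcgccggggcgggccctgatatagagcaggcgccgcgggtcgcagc
F2RL1 promoter: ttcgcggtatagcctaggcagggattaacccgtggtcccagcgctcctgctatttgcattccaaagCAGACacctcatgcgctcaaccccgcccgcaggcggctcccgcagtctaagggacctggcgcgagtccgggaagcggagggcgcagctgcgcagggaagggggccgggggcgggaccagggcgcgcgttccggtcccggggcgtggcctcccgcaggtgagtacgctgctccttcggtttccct
HTRA1 promoter: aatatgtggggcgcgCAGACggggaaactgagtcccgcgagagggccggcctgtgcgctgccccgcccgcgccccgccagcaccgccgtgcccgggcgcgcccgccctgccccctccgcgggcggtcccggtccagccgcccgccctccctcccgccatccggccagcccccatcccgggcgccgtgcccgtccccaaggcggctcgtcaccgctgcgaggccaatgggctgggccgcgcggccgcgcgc
The forkhead motif GTAAACA, searched on both strands, was in none of the 9 windows of these 7 genes and in 2.98% of 35116 promoter windows of the same length. An AP-1 match, held by 6.57% of all windows, was found in SERPINB2 at -102 to -96 from the start site, in PLAUR at -186 to -180, and at 2 places in F3, from -223 to -217 and from -210 to -204. SERPINB2 alone of the 7 genes held the TATA box, at -30 to -25, as did 6.80% of all windows. The SMAD half-site was in 38.0% of all windows and in those of SERPINB2, PLAU, PLAUR, F2RL1 and HTRA1. The windows also differed in base composition, from 37.2% G and C in SERPINB2 to 81.2% in HTRA1, against a median of 58.0%. These are letter matches in short windows and say nothing of binding.

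All 9 transcripts were higher in C134W than in EV cells, both without and with TGF, and most of them were also higher in C134W than in WT cells. In the authors' deposited tables (DESeq2 Wald test, Benjamini-Hochberg adjusted p under 0.05 over all genes), 9 of 9 passed as higher against EV without TGF, where 13.7% of 13306 tested genes were called higher. With TGF it was again 9 of 9 as higher, against 22.5% of 15477 genes called higher and 20.2% called lower. The median log2 fold change of the 9 was 2.56 without TGF and 3.87 with it in the authors' deposited tables, beside medians over all tested genes that rounded to 0. Against WT, 6 were higher and 2 lower without TGF, with backgrounds of 10.9% higher and 11.5% lower. With TGF, 6 were higher and 3 lower, with backgrounds of 17.3% and 17.4%. The tables against WT and against EV hold the same C134W libraries, so they are not independent of each other. The 9 genes were chosen with earlier results of these data known. Their counts beside the shares of all genes, here and below, are thus descriptions. The genes below the WT level in C134W cells were the receptors F2R and F2RL1 and, with TGF, F3. Against a null centered and scaled on the statistics of all genes with a mean of at least 10 counts (empirical null), F2RL1 alone stayed lower, the calls of F2R ended in both TGF states and that of F3 ended with TGF. Of the higher calls against WT, PLAT without TGF and PLAUR with TGF also ended under it.

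**Figure D1:**
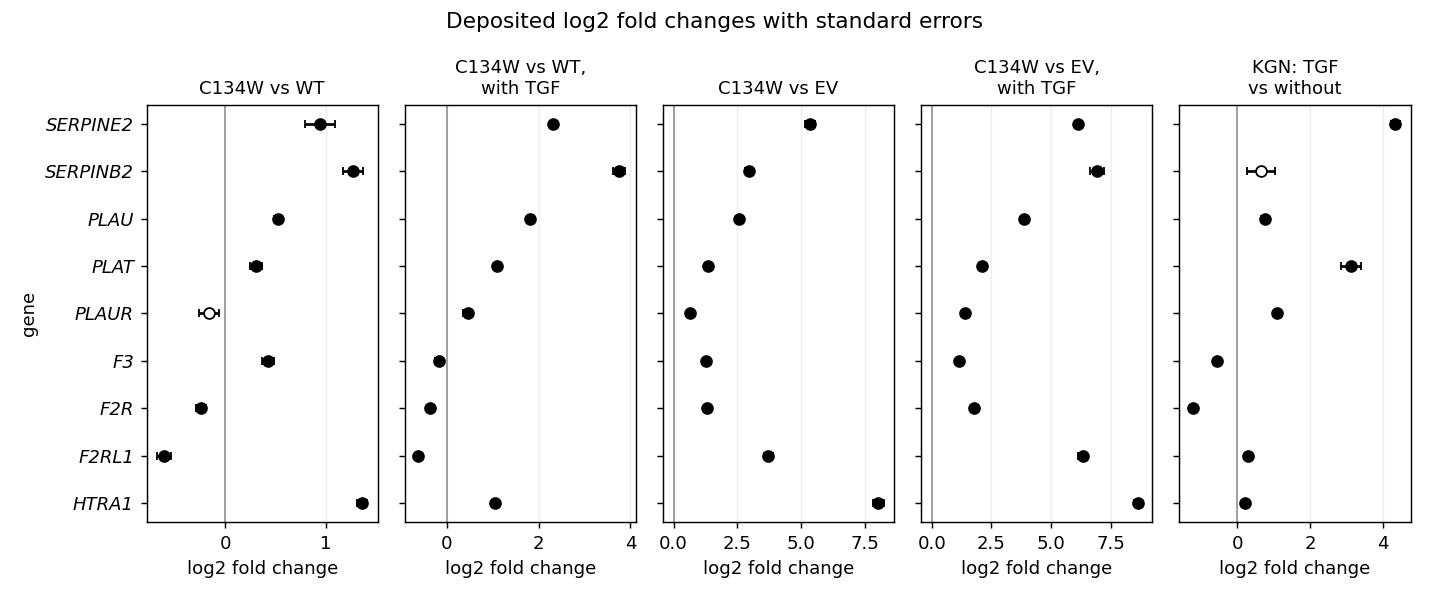
Deposited log2 fold changes (x axis) of the 9 genes (y axis) in the 5 tables, with standard errors as bars; filled points have an adjusted p under 0.05 and open points do not. Each panel has its own x scale and some bars are shorter than their point. All 9 lie to the right of 0 against EV, HTRA1 farthest at 8.02 and 8.65, while F2R and F2RL1 lie to the left of 0 against WT.

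Wild-type FOXL2 cells also held more of each transcript than EV cells. No deposited table compares them, so the fold change of C134W against WT was subtracted from that against EV, which counts the C134W error a second time and makes the error too large. By a two-sided z test with Benjamini-Hochberg adjustment, 9 of 9 were higher in WT than in EV without TGF, against 7.99% of 18283 genes. With TGF it was 9 of 9, against 14.2% of 18617 genes. The log2 differences ran from 0.82 ± 0.17 (PLAUR) to 6.67 ± 0.21 (HTRA1) without TGF, and from 0.93 ± 0.14 (PLAUR) to 7.61 ± 0.17 (HTRA1) with it. The deposited fold changes had been drawn towards 0 by a prior that differs between tables, so these differences are themselves shifted. With that prior undone, HTRA1 was 7.89 ± 0.24 without TGF and 7.91 ± 0.18 with it, and PLAUR 0.88 ± 0.19 and 0.93 ± 0.14. In what follows ± is a standard error on the log2 scale.

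**Figure D2:**
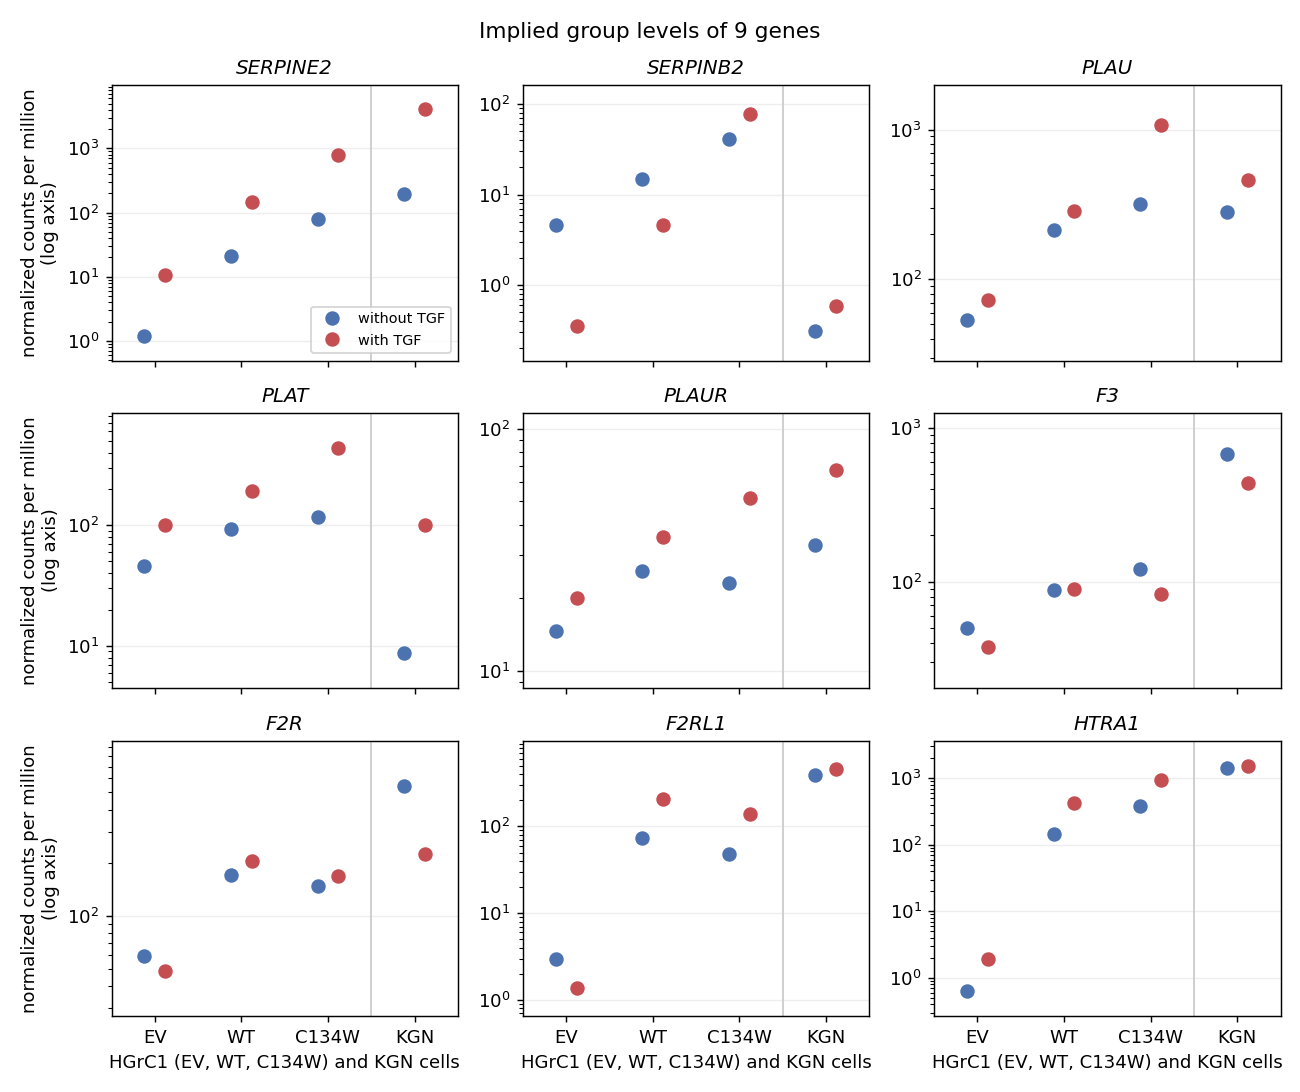
Implied level of each gene in 8 groups, in CPM on a log axis, with HGrC1 groups left of the line and KGN right of it; blue points are without TGF and red points with it, and no error can be given. SERPINB2 runs from 0.349 in EV with TGF to 77.3 in C134W with TGF, and HTRA1 lies at 0.63 and 1.9 in EV and from 143.2 upward elsewhere.

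SERPINB2, the clade B serpin that inhibits urokinase, was the transcript whose C134W effect differed most between the TGF states. Without TGF the implied levels of EV, WT and C134W cells were 4.58, 14.7 and 40.8 CPM. With TGF they were 0.349, 4.62 and 77.3 CPM. The level was thus lower with TGF than without in EV and WT cells and higher in C134W cells, a comparison across separately normalized tables that has no test. The EV level with TGF stands on an implied mean of 4.05 normalized counts, so every comparison with it rests on few reads. The authors' deposited table gave C134W over WT as 1.27 ± 0.10 without TGF (DESeq2 adjusted p = 4.33e-34) and as 3.75 ± 0.14 with it (adjusted p = 7.40e-153). The authors' deposited tables against EV gave 2.95 ± 0.16 and 6.93 ± 0.29, the latter rank 2 of the 15477 genes tested (adjusted p = 3.75e-127). DESeq2 had moderated the fold changes towards 0 by a prior that differs between tables, and with it undone the value against EV with TGF was 7.81 ± 0.32. The effect against WT was larger with TGF by 2.48 ± 0.17 (z test, adjusted p = 1.48e-43) and that against EV by 3.98 ± 0.33 (adjusted p = 8.31e-32).

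SERPINB2 sits in a cluster of clade B serpins on chromosome 18 (63887705 to 63903888, GRCh38). Of its neighbors within the same stretch, SERPINB3, SERPINB4, SERPINB5, SERPINB11, SERPINB12 and SERPINB13 had a deposited mean of 0 in the table of C134W against EV with TGF. SERPINB10 and SERPINB7 had means of 2.22 and 7.82 normalized counts there, and both were higher in C134W in the authors' deposited table, by 1.08 ± 0.42 and 1.11 ± 0.43 (DESeq2 adjusted p = 0.0253 for each). HMSD and SERPINB8, on the distal side, were expressed, and both were higher in C134W with TGF. In the authors' deposited tables HMSD was 1.61 ± 0.17 against WT and 1.42 ± 0.16 against EV with TGF, and 0.39 ± 0.14 and 0.40 ± 0.18 without, the last not passing. SERPINB8, an inhibitor of furin, was 0.53 ± 0.09 against WT and 2.00 ± 0.10 against EV with TGF in the authors' deposited tables. Without TGF the authors' deposited tables gave -0.07 ± 0.08, which did not pass, and 0.64 ± 0.11. SERPINB7 was also higher against EV without TGF, by 0.91 ± 0.27, but lower against WT with TGF, at -0.88 ± 0.28 from a mean of 18.3 counts, in the authors' deposited tables.

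SERPINE2 (chromosome 2, 223975045 to 224039286), the serpin that inhibits thrombin, urokinase and plasmin, was ordered EV, WT, C134W in both TGF states. Its implied levels were 1.19, 21.4 and 78 CPM without TGF and 10.7, 145.7 and 779.8 with it. KGN stood at 193.1 without and 4054 with TGF. Against EV the authors' deposited tables gave 5.34 ± 0.19 without TGF (rank 3 of 13306 genes; DESeq2 adjusted p = 5.30e-163) and 6.14 ± 0.09 with it. Against WT the authors' deposited tables gave 0.94 ± 0.15 without TGF (adjusted p = 2.47e-08) and 2.32 ± 0.06 with it, where the adjusted p is listed as 0. The deposited 0.94 understates the difference, since its error was larger than that of 99.9% of 1690 genes of like mean and the prior of that table is narrow. With the prior undone it was 1.78 ± 0.29, and with the C134W level taken from the table against EV it was 2.04. The undoing assumes a well-measured gene, whereas this error lay near the table's largest (0.154), so 1.78 may still be too small. The WT level of 21.4 CPM and the undone gain with TGF against WT carry the same uncertainty. The gain with TGF, 1.38 ± 0.16 against WT as deposited (z test, adjusted p = 5.74e-15), was 0.57 ± 0.30 with the prior undone and no longer passed (adjusted p = 0.316). Against EV the gain was 0.79 ± 0.21 (adjusted p = 0.00265) as deposited and 0.13 ± 0.24 with the prior undone (adjusted p = 0.861).

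PLAU (chromosome 10, 73908832 to 73917494), which encodes urokinase, had the C134W effect with the largest Wald statistic against EV with TGF. Without TGF the implied levels in EV, WT and C134W cells were 53.3, 215.0 and 317.5 CPM, and with it 73.3, 286.1 and 1070. The level with TGF stood above that without by 1.75 on the log2 scale in C134W cells, by 0.46 in EV and by 0.41 in WT, again without a test. In the authors' deposited tables C134W over EV was 2.56 ± 0.08 without TGF and 3.87 ± 0.06 with it, the latter ranking first of 15477 genes by that statistic. C134W over WT was 0.52 ± 0.04 (DESeq2 adjusted p = 2.53e-38) and 1.81 ± 0.06 (adjusted p = 5.53e-210) in the authors' deposited tables. The effect was larger with TGF by 1.29 ± 0.07 against WT (z test, adjusted p = 1.78e-71) and by 1.31 ± 0.09 against EV (adjusted p = 1.33e-41).

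The long non-coding transcript C10orf55 (chromosome 10, 73909969 to 73922777) overlaps PLAU and was looked up after its values had been seen. Its fold changes in the authors' deposited tables were 0.45 ± 0.07 and 1.75 ± 0.07 against WT and 2.73 ± 0.12 and 4.01 ± 0.09 against EV, each pair without and then with TGF. It was also the gene nearest to PLAU by pattern. Strand-specific counting is not stated in the sources used here, and reads of the 2 genes cannot be told apart without it.

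PLAT, the tissue-type activator (chromosome 8, 42174718 to 42207565), followed the order of PLAU with smaller differences. Its levels were 46.1, 92.5 and 116.8 CPM in EV, WT and C134W without TGF and at 101.0, 192.5 and 438.9 with it. In the authors' deposited tables the fold changes against WT were 0.30 ± 0.06 without TGF (DESeq2 adjusted p = 1.47e-05) and 1.10 ± 0.07 with it (adjusted p = 3.00e-55). Those against EV were 1.34 ± 0.09 and 2.12 ± 0.07 in the authors' deposited tables. The difference between the TGF states was 0.80 ± 0.09 against WT and 0.79 ± 0.11 against EV, both passing the z test (adjusted p = 3.34e-16 and 2.89e-10).

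PLAUR, the receptor that anchors urokinase (chromosome 19, 43646095 to 43670169), was the only one of the 9 that did not pass against WT without TGF. The authors' deposited table gave -0.16 ± 0.10 there (DESeq2 adjusted p = 0.27) and 0.45 ± 0.10 with TGF (adjusted p = 1.82e-05). The implied levels were 14.6, 25.7 and 23 CPM in EV, WT and C134W without TGF, the last 2 not separated by the test. With TGF they were 19.9, 35.6 and 51.7. C134W over EV was 0.65 ± 0.14 and 1.38 ± 0.10 in the authors' deposited tables. The effect of C134W was larger with TGF by 0.61 ± 0.14 against WT and by 0.73 ± 0.17 against EV (z test, adjusted p = 2.79e-04 and 3.46e-04).

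F3, tissue factor (chromosome 1, 94529173 to 94541759), changed its order between WT and C134W with TGF. Its implied levels in EV, WT and C134W were 50.1, 87.9 and 121.3 CPM without TGF and 37.4, 89.3 and 82.5 with TGF. C134W over WT was 0.42 ± 0.06 without TGF in the authors' deposited table (DESeq2 adjusted p = 3.09e-11). With TGF the authors' deposited table gave -0.18 ± 0.08 (adjusted p = 0.0459), close to the threshold, and -0.16 and not passing when the table was centered on its median. That call also ended without the filter on low means. The effect against WT was lower with TGF by -0.60 ± 0.09 (z test, adjusted p = 1.70e-08). Against EV the authors' deposited tables gave 1.28 ± 0.08 and 1.15 ± 0.08, and their difference of -0.13 ± 0.12 did not pass (adjusted p = 0.616).

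F2R and F2RL1 encode receptors that signal after a protease cuts their extracellular end, and lie near each other on chromosome 5 (76716126 to 76735770 and 76819030 to 76835315). Both had their highest HGrC1 level in WT cells. F2RL1 was implied at 2.96, 74.3 and 48.3 CPM in EV, WT and C134W without TGF, and at 1.39, 204.7 and 138.2 with it. Against EV the authors' deposited tables gave 3.71 ± 0.17 without TGF (rank 8 of all tested) and 6.34 ± 0.19 with it (the fourth highest). Against WT the same tables of the authors gave -0.61 ± 0.07 (DESeq2 adjusted p = 2.62e-16) and -0.63 ± 0.06 (adjusted p = 9.82e-22). The effect against EV was larger with TGF by 2.63 ± 0.25 (z test, adjusted p = 7.84e-23), whereas that against WT differed by -0.02 ± 0.10 (adjusted p = 0.965).

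F2R showed the same order with smaller differences. It was implied at 59.5, 170.7 and 146.9 CPM in EV, WT and C134W without TGF and at 48.7, 203.9 and 167.4 with it. The authors' deposited tables gave -0.24 ± 0.05 and -0.36 ± 0.06 against WT without and with TGF (DESeq2 adjusted p = 1.90e-05 and 6.41e-08). Its values against EV were 1.31 ± 0.09 and 1.79 ± 0.07 in the authors' deposited tables. The difference between TGF states was 0.48 ± 0.12 against EV (z test, adjusted p = 6.05e-04) and -0.11 ± 0.08 against WT, which did not pass (adjusted p = 0.53). The third receptor gene of the locus, F2RL2 (PAR3), was scarce and was lower in C134W cells in 3 of the 4 tables, at -1.13 ± 0.15 against WT, -1.24 ± 0.28 against EV and, with TGF, -1.72 ± 0.27 against WT in the authors' deposited tables. Against EV with TGF the authors' deposited table gave -0.07 ± 0.41, which did not pass (adjusted p = 0.909). Its deposited means in those tables were 30.7, 19.6, 25.5 and 9.06 counts.

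HTRA1 (chromosome 10, 122461553 to 122514907) had the highest log2 fold change of all tested genes against EV in both TGF states. EV, WT and C134W cells stood at 0.63, 143.2 and 382.1 CPM without TGF. With TGF they stood at 1.9, 427.9 and 930.4 CPM. The authors' deposited tables gave 8.02 ± 0.20 without TGF and 8.65 ± 0.16 with it, and the adjusted p of both is listed as 0. Undoing the prior made these 9.28 ± 0.24 and 8.95 ± 0.17, about 620 and 496 times the EV level. Against WT it was 1.36 ± 0.05 without TGF, with the largest Wald statistic of the 12463 genes of the authors' deposited table (DESeq2 adjusted p = 1.90e-185), and 1.04 ± 0.05 with it (adjusted p = 1.10e-78). The effect against WT was smaller with TGF by -0.32 ± 0.07 (z test, adjusted p = 2.52e-04). Against EV the difference of 0.63 ± 0.26 did not pass (adjusted p = 0.104), and with the prior undone it was -0.32 ± 0.29 (adjusted p = 0.637).

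The TGF dependence of the C134W effect therefore differed among the 9 genes. Against WT the effect was higher with TGF for 5 genes (SERPINE2, SERPINB2, PLAU, PLAUR and PLAT) and lower for 2 (F3 and HTRA1), where 4.26% of 17972 genes were called higher and 4.70% lower. With the prior undone it was 4 higher, without SERPINE2, and 2 lower, against 3.61% and 4.44%. Against EV the effect was higher with TGF for 7 and lower for 0, with F3 and HTRA1 not passing, against 6.92% higher and 6.47% lower of 17969 genes. With the prior undone it was 6, again without SERPINE2, against 6.53% and 6.23%. Each pair of tables subtracted shares no library, but the differences against WT and against EV share the C134W libraries. SERPINB2, PLAU, PLAT and PLAUR passed against both controls with and without the prior, whereas F2RL1 and F2R passed against EV and not against WT. Under the empirical null PLAUR no longer passed against either control, nor HTRA1 against WT, nor SERPINE2 and F2R against EV. Whether the differences against EV and against WT themselves differ was not tested.

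**Figure D3:**
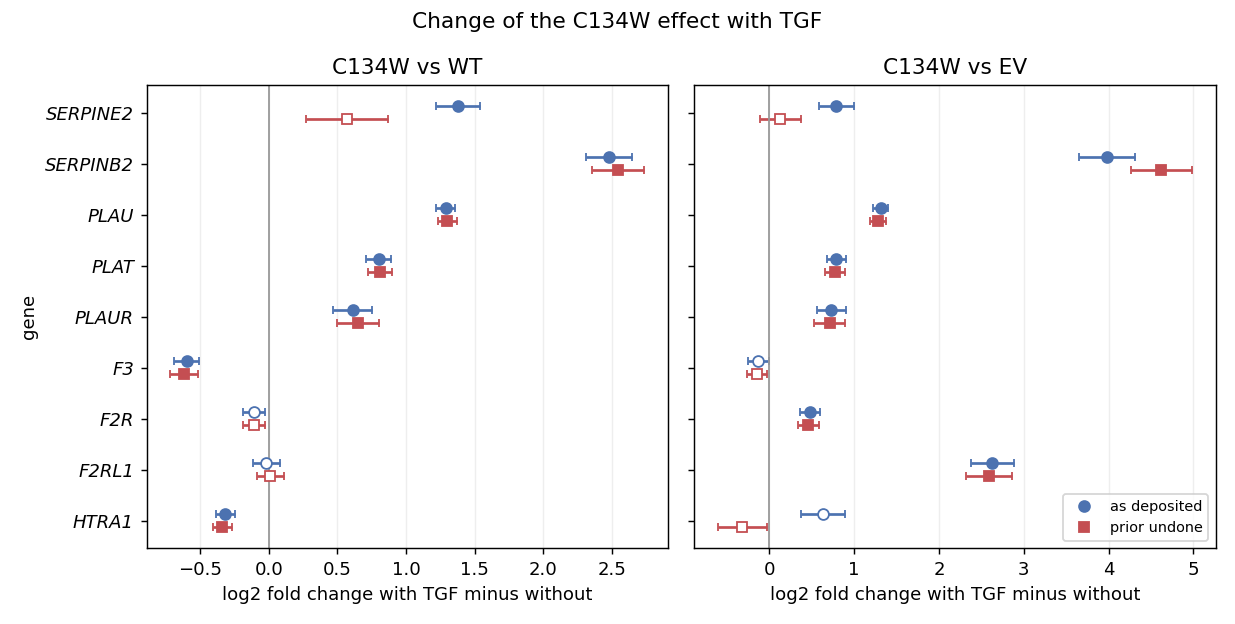
Log2 fold change of C134W with TGF minus that without (x axis), with standard errors as bars, against WT (left) and EV (right) for the 9 genes (y axis); blue circles use the deposited values and red squares the values with the prior undone, and filled symbols have an adjusted p under 0.05. SERPINB2 shows the highest difference in both panels, 2.48 and 3.98, and SERPINE2 is the gene whose filled circle has an open square beside it.

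In KGN, TGF raised both plasminogen activators, PLAUR and SERPINE2, and lowered F3 and F2R. Of the 9 genes, 6 were higher with TGF and 2 lower in the authors' deposited table, against 19.8% higher and 20.0% lower of 15719 genes tested. SERPINE2 rose by 4.33 ± 0.13, rank 3 of all tested genes in the authors' deposited table (DESeq2 adjusted p = 3.82e-232). PLAT rose by 3.12 ± 0.28 in the authors' deposited table (adjusted p = 3.78e-28), from 8.64 to 101.3 CPM, but its standard error was larger than that of 99.8% of 1564 genes of like mean. PLAUR rose by 1.09 ± 0.06, from 32.9 to 67.3 CPM, and PLAU by 0.76 ± 0.10, from 283.1 to 463.3, in the authors' deposited table. The standard error of PLAU was larger than that of 95.0% of 258 genes of like mean. F2R was -1.22 ± 0.08 in the authors' deposited table (adjusted p = 5.53e-54), from 544.5 to 222.6 CPM, and F3 was -0.56 ± 0.06 (adjusted p = 2.15e-17), from 676.3 to 440.1. F2RL1 and HTRA1 changed least, at 0.28 ± 0.05 and 0.20 ± 0.05 in the authors' deposited table, from 390.6 to 454.9 and from 1406 to 1551 CPM. Under the empirical null the calls of PLAU, F3, F2RL1 and HTRA1 in KGN ended.

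SERPINB2 was nearly silent in KGN, at 0.308 and 0.585 CPM, and its 0.64 ± 0.38 did not pass (DESeq2 adjusted p = 0.184 in the authors' deposited table, mean of 3.72 counts). HMSD beside it was also scarce there, with a mean of 2.66 counts. SERPINE2, PLAUR, F3, F2R, F2RL1 and HTRA1 had a higher implied level in KGN than in any HGrC1 group in the same TGF state, while SERPINB2 without TGF had a lower one than any. PLAT without TGF was lower in KGN than in each HGrC1 group. These comparisons across tables have no test, and a scale set by the median gene raised the KGN levels by 0.18 and 0.20 on the log2 scale. The 2 lines were run as separate experiments per the labels, so line and experiment cannot be told apart.

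Other genes of the same pathways did not move as one with the 9. Since the 9 and these lists were chosen with earlier results of these data known, the contrast may follow from that choice. Among 18 other genes of the plasminogen system, 13 had an adjusted p against EV with TGF, of which 1 was higher and 5 lower, beside 22.5% higher and 20.2% lower of all genes. Against WT with TGF, 3 of 11 were higher and 3 lower, beside 17.3% and 17.4% of all genes. The list's medians were -0.12 against EV and -0.16 against WT, where those of all genes rounded to 0. MRC2, a collagen receptor that associates with PLAUR, was higher in C134W by 1.87 ± 0.09 against EV without TGF and by 0.64 ± 0.08 against WT with TGF in the authors' deposited tables. LRP1, the receptor that clears serpin complexes, was 0.66 ± 0.09 against WT with TGF in the authors' deposited table. Against EV with TGF it was -0.12 ± 0.09 in the authors' deposited table, which did not pass. Without TGF the authors' deposited tables gave 0.41 ± 0.07 against WT and 0.67 ± 0.10 against EV. The plasminogen receptor subunit ANXA2 was -0.53 ± 0.06 against WT and -0.48 ± 0.05 against EV with TGF in the authors' deposited tables. VTN, the adhesion protein vitronectin, was -1.57 ± 0.16 against EV without TGF, and VLDLR was -0.69 ± 0.08 against EV with TGF in the authors' deposited tables. In KGN, 3 of 14 were higher and 3 lower with TGF, near the shares of all genes (19.8% and 20.0%), and the authors' deposited table gave -1.11 ± 0.04 for S100A10, a plasminogen receptor subunit.

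**Figure D4:**
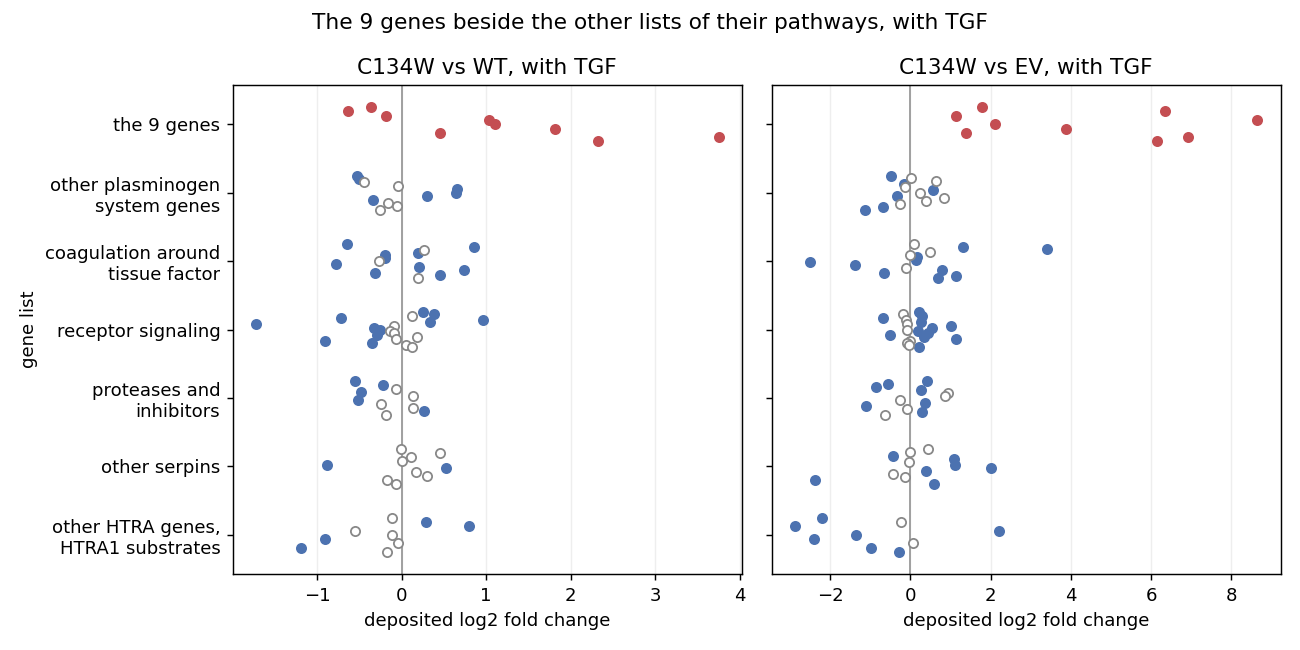
Deposited log2 fold changes (x axis) with TGF of the 9 genes (red) and of the genes with an adjusted p in 6 other lists (y axis), against WT (left) and EV (right); filled points have an adjusted p under 0.05, and the spread within a row only separates points. The 9 genes reach 3.75 against WT and 8.65 against EV and lie right of 0 throughout against EV, whereas each other list has points on both sides of 0 in both panels.

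Of 17 genes of coagulation around tissue factor, 7 of the 14 with an adjusted p were higher and 3 lower against EV with TGF (all genes 22.5% and 20.2%). Against WT with TGF, 5 of 13 were higher and 5 lower (all genes 17.3% and 17.4%). The medians were 0.15 and 0.20. TFPI and THBD, which restrain this pathway, were higher in C134W with TGF in the authors' deposited tables, TFPI by 0.79 ± 0.08 against EV and 0.74 ± 0.08 against WT, and thrombomodulin (THBD) by 1.13 ± 0.06 against EV. PROCR, the protein C receptor, was lower in the same tables of the authors, at -1.37 ± 0.10 and -0.78 ± 0.11. TFPI2, by name tissue factor pathway inhibitor 2, was lower there too, at -0.65 ± 0.07 against EV and -0.31 ± 0.08 against WT. With TGF, PROCR thus differed in the opposite direction to TFPI and THBD. In KGN the authors' deposited table gave -1.80 ± 0.20 for TFPI with TGF.

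Of 19 genes of protease-activated receptor signaling, all with an adjusted p, 10 were higher and 2 lower against EV with TGF (all genes 22.5% and 20.2%), with a median of 0.20. Against WT with TGF 4 were higher and 7 lower (all genes 17.3% and 17.4%), with a median of -0.09. PLCB4, a phospholipase downstream of Gq, was 1.14 ± 0.08 against EV with TGF and 1.93 ± 0.12 in KGN in the authors' deposited tables. The arrestins, which end receptor signaling, parted: against WT with TGF ARRB2 was 0.96 ± 0.14 and ARRB1 -0.71 ± 0.11 in the authors' deposited table. Against EV, ARRB2 was -0.72 ± 0.11 without TGF in the authors' deposited table. A further list held 21 proteases, inhibitors and related genes, such as HGF, gathered around these receptors and urokinase. Of those with an adjusted p, 4 of 12 were higher and 3 lower against EV with TGF. Against WT with TGF, 1 of 10 was higher and 4 lower, beside the same shares of all genes. Whether each listed gene acts on these receptors or on urokinase in these cells was not tested. The medians of this list were 0.09 against EV and -0.20 against WT. Cathepsin CTSB was 0.42 ± 0.06 against EV and -0.55 ± 0.06 against WT with TGF in the authors' deposited tables, and PRSS23 was 0.36 ± 0.06 and -0.51 ± 0.06.

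Of 19 other serpins, 5 of 12 were higher and 2 lower against EV with TGF (all genes 22.5% and 20.2%), with a median of 0.20. Against WT with TGF 1 of 10 was higher, SERPINB8, and 1 lower, SERPINB7 (all genes 17.3% and 17.4%), with a median of 0.06. The collagen chaperone SERPINH1 was 0.60 ± 0.06 and SERPINB1, an inhibitor of neutrophil proteases, -0.42 ± 0.10 against EV with TGF in the authors' deposited tables. Among 13 other HTRA genes and HTRA1 substrates, 1 of 9 was higher and 6 lower against EV with TGF (all genes 22.5% and 20.2%), with a median of -0.97. Against WT with TGF 2 of 9 were higher and 2 lower (all genes 17.3% and 17.4%), with a median of -0.11. Against EV with TGF, biglycan BGN was -2.21 ± 0.12, fibronectin FN1 -1.35 ± 0.05 and HTRA3 -0.97 ± 0.16 in the authors' deposited table. HTRA3, the paralog, was also lower than in WT with TGF, at -1.19 ± 0.16 in the authors' deposited table, opposite in direction to HTRA1.

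The genes whose 5 deposited fold changes lay nearest to each of the 9 were sought by Euclidean distance over 8299 genes whose mean reached 100 counts in every table. C10orf55, which overlaps PLAU and may share its reads, lay 0.26 from PLAU, the smallest distance found, and ANTXR2 1.04. RBM24 (0.36) and BPGM (0.41) lay nearest to PLAUR, and COL6A1 (0.37) and TMPO-AS1 (0.53) to F3. IGFBP6 (0.82) and CABLES1 (0.83) lay nearest to F2R, and CORO2A (1.34) and MT2A (1.47) to PLAT. The other 4 genes had no close neighbor: FOXL2 itself was nearest to HTRA1 at 3.68, HUNK to SERPINE2 at 3.80, MYO6 to SERPINB2 at 2.61 and SYNPO2 to F2RL1 at 2.39. MYO6 resembled SERPINB2 in being higher against WT by 1.21 without TGF and by 3.78 with it. The distances rest on 5 values per gene, of which 4 share C134W libraries.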

How the data were processed

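RNA was sequenced from 27 labelled samples in 8 groups, taken from the sample titles, among 105 samples in all. Libraries came from a TruSeq RNA v2 kit per the labels' protocols. The submitters' processing notes name the build hg38 and, without their roles, DESeq2, HTSeq 0.6.1, Trimmomatic 0.36.0 and Bowtie2. Each table the authors deposited holds, per gene, the mean normalized signal (counts over size factors, averaged over both groups). The log2 fold change and the error the authors deposited beside it are both on the log2 scale, positive where the first-named group is higher. The deposited Wald statistic is a score, and each deposited p-value has a Benjamini-Hochberg adjusted one, missing for filtered genes. Values were used as deposited, with no table refitted, and adjusted p-values listed as 0 are smaller than the file can show.

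The deposited fold changes carry a normal prior centered on 0. Its width follows from the largest standard error of a table, which is the prior's standard deviation over 2. Undoing it has 2 solutions per gene, and the one for well-measured genes was always taken. For a gene whose error is near the largest, such as SERPINE2 against WT without TGF, this may understate the fold change. The C134W levels solved from 2 tables differed with a standard deviation (log2) of 0.0038 with the prior undone and 0.0153 as deposited, over 9356 genes without TGF. With TGF it was 0.0050 and 0.0098 over 9490 genes. Group levels were solved from the mean, the number of libraries and the undone fold change. C134W levels came from the tables against EV. The implied levels are descriptions, since tables were normalized separately. Differences between tables were tested by a two-sided z test with Benjamini-Hochberg adjustment over all genes, tested on simulated data first. The simulated tables had independent errors and no prior, so they could not show the effect of shared libraries or of unequal priors. In bulk RNA, fewer cells with a transcript and less of it per cell cannot be told apart. No source used here says that replicate libraries are separate cultures. The p-values then measure the spread between these libraries only, and it may be technical.

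Named genes were the 9 members, at most 3 genes per pathway list and table with the largest absolute fold change (adjusted p under 0.05, mean of at least 100 counts), the 2 nearest genes by pattern, and the serpin neighbors of SERPINB2. The receptor gene F2RL2 and C10orf55 were chosen after their values were seen. The members and lists were chosen with earlier results of these data known, and 1 gene of the plasminogen list is not reported here and is left out of its counts. Alternatives were an empirical null, 2 filters, a minimum log2 difference of 1, other scalings and the undone prior. Promoter windows and gene positions are from RefSeq. Scripts ran in Python 3.11.15 with numpy, pandas, scipy and matplotlib.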

Additional observations from a re-analysis of the deposited data

Results flagged for a closer look

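These results are given because the C134W effect differed between cells with and without TGF by the z test of the difference (adjusted p under 0.05 over all genes). Values are the log2 fold change with TGF minus that without. Against wild type they were 1.38 for SERPINE2, 2.48 for SERPINB2, 1.29 for PLAU, 0.61 for PLAUR, 0.80 for PLAT, -0.60 for F3 and -0.32 for HTRA1. Against the empty vector they were 0.79 for SERPINE2, 3.98 for SERPINB2, 1.31 for PLAU, 0.73 for PLAUR, 0.79 for PLAT, 0.48 for F2R and 2.63 for F2RL1. The 2 values of SERPINE2 did not pass with the prior undone, at 0.57 and 0.13.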

How the results depend on the processing

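Requiring a log2 difference of at least 1 left 2 genes called of 8 against WT without TGF (SERPINB2 and HTRA1), 5 of 9 with TGF, 4 of 8 in KGN, and 3 of 7 for the TGF dependence against WT and 3 of 7 against EV. An empirical null left 4 of 8 called in KGN, without PLAU, F3, F2RL1 and HTRA1, and 4 of 7 for the TGF dependence against EV, without SERPINE2, PLAUR and F2R. It also ended the calls of PLAT and F2R against WT without TGF, of PLAUR, F3 and F2R with TGF (leaving 1 lower call in each state), of PLAUR and HTRA1 for the TGF dependence against WT, and of PLAUR for C134W against EV without TGF and for WT against EV in both states. The other counts of calls in both directions together stayed within 1.5 times under these, both filters and the undone prior, although testing all genes without a filter ended the call of F3 against WT with TGF. Centering on the median ended the call of F3 against WT with TGF (-0.16). Taking the C134W level from the other table, an alternative chosen after seeing the data, gave 2.04 for SERPINE2 without TGF against WT. For SERPINB2 against WT it gave 1.42 without TGF and 3.97 with it. The prior undone alone gave 1.44 and 4.00 for SERPINB2, so its shift came mainly from undoing the prior. A median scale moved 22 of 72 implied levels by more than the standard error of the gene's fold change in the same table, by up to 0.20 on the log2 scale in KGN. With the prior undone, the TGF dependence of HTRA1 against EV turned from 0.63 to -0.32 and that of F2RL1 against WT from -0.02 to 0.01, none of them passing. No called value of the 9 genes changed sign. No paired analysis was possible because the tables hold no values per library, so no library could be left out either. Depth limits SERPINB2 in KGN and in EV cells with TGF, HTRA1, SERPINE2 and F2RL1 in EV cells, and F2RL2.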
